A study of Mus musculus with 6 samples.

Results

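The nuclear-encoded parts of respiratory complexes II, III, IV and V were followed in the liver of male mice that carried the Prdx1 C52S variant and of wild-type (WT) mice. Members were taken by gene symbol: the Sdh subunits and Sdhaf factors of complex II, the Uqcr and Uqcc genes and Cyc1 of complex III with the electron carrier Cycs, the Cox genes of complex IV and the Atp5 genes of complex V. The rule found 71 of the 29734 genes in the table, of which 62 encode proteins and 9 carry pseudogene names or types. By complex there were 8 genes for complex II, 14 for complex III with cytochrome c, 27 for complex IV and 22 for complex V. By role there were 40 subunits, 16 assembly factors, 5 isoforms known from other tissues, 1 carrier and the 9 pseudogenes. Levels chose none of them.

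Prdx1 encodes peroxiredoxin 1, which removes hydrogen peroxide through reactive cysteines, and in Prdx1 C52S serine takes the place of cysteine 52. The 3 Prdx1 C52S libraries (1, 2 and 4) were set against 3 WT libraries (6, 8 and 9). All 6 came from males that began a Western diet at 8 weeks of age and ate it for 20 weeks, so no library shows the liver on another diet. The labels state neither the strain, nor the number of mutant alleles, nor whether each library is 1 animal, so p-values measure only the spread between these libraries.

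Oxidative phosphorylation passes electrons from nutrients to oxygen along complexes in the inner mitochondrial membrane and uses the resulting proton gradient to make ATP. Complex II is succinate dehydrogenase, an enzyme shared with the citric acid cycle and the only complex here with no subunit encoded in mitochondrial DNA. Complex III hands electrons to cytochrome c, complex IV hands them on to oxygen, and complex V is the ATP synthase; each of these combines nuclear subunits with subunits made inside the organelle, and dedicated factors insert the haem, copper and iron-sulfur groups. Liver is rich in mitochondria, and its hepatocytes depend on this system for urea, glucose and bile acid synthesis.

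Levels are given as FPKM, fragments scaled to transcript length and library depth. Comparisons between genes, including shares and sums over genes, depend on the transcript lengths used and are approximate. Atp5g1 and Atp5g2, for example, rested on 4750 to 6942 and 4882 to 6731 estimated counts, yet averaged 14.55 and 45.27 FPKM in WT livers. The estimated counts summed to between 60326469 and 76164949 per library, about 15.1 to 19 M fragments, and 66 of the 71 members passed the filter on low counts, among them 60 of the 62 protein-coding ones. The 5 that did not pass were Cox6a2, Cox8b, Uqcrh-ps1, Atp5l-ps1 and Atp5l-ps2. Subunit transcripts were abundant and rested on 1262 counts (Atp5k) or more in every library. WT 8 stood apart, with a mean correlation to the other libraries of 0.937 against up to 0.966. In WT 8 the summed FPKM of 4 pericentral hepatocyte markers (Glul, Cyp2e1, Cyp1a2 and Oat) was 600, against 2125 to 3390 elsewhere, and that of 6 cholangiocyte markers was 822, against 62.8 to 356. Albumin, the defining hepatocyte transcript, was at 18120 to 22280 FPKM in all 6 libraries, as the label liver requires.

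Scaling decides how the members are read, so many values are given under both scalings. A log2 fold change with no scaling named uses TMM factors. With TMM factors, which align the bulk of genes between libraries, the median log2 fold change (Prdx1 C52S over WT) of the 18931 genes tested was -0.03. With library totals only, it was -0.34. The 2 scalings differ by 0.31 for the median gene, and by 0.20 without WT 8. FPKM follow the library totals, and the median gene had an FPKM ratio of 0.793. Among the 3331 tested genes with at least 10 FPKM on average, a level that all 40 subunits reached, that ratio was 0.952.

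All 40 nuclear subunits had a positive log2 fold change with TMM factors, between 0.18 and 0.55, whereas 25 were positive and 15 negative with library totals only. Sdha and Sdhb, of succinate dehydrogenase, had the highest values under both scalings. The assembly factors stood lower, with a median of 0.18 against 0.32 for the subunits, and at -0.12 against 0.03 with library totals only. Their median FPKM ratio of 0.927 was still above the 0.793 of the median gene. Their levels were also lower, with group means down to 1.16 FPKM against 14.6 FPKM for the subunits. The part of level in this difference was not tested. No member passed the Benjamini-Hochberg adjusted threshold of 0.05 in edgeR's quasi-likelihood test in either direction, where 0.0% of all genes tested were called higher and 0.0% lower, the smallest adjusted p of any gene being 0.0553. At an unadjusted p under 0.05, 26 of 66 members were higher, against 11.5% of all genes tested, and 0 of 66 were lower, against 14.8%. With library totals only, 2 members (Sdha and Sdhb) were higher, against 3.73% of all genes, and 3 (Cox17, Cox19 and Cox4i2) were lower, against 30.4%. Leaving out 1 library moved the 26 higher members to 10, 9 and 6 without Prdx1 C52S 1, 2 and 4, and to 16 and 40 without WT 6 and WT 9. Of the tested genes with at least 10 FPKM, 32.2% were higher at that unadjusted level with TMM factors. DESeq2, with its own size factors, called 8 of 66 members higher at an adjusted p under 0.05 (Sdha, Sdhb, Sdhc, Sdhd, Cyc1, Uqcrq, Atp5a1 and Atp5g3), against 6.11% of all genes. Without WT 8, edgeR called 2 of 67 higher (Sdha and Sdhb), against 2.70% of all genes, and 0 of 67 lower, against 1.94%.

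**Figure D1:**
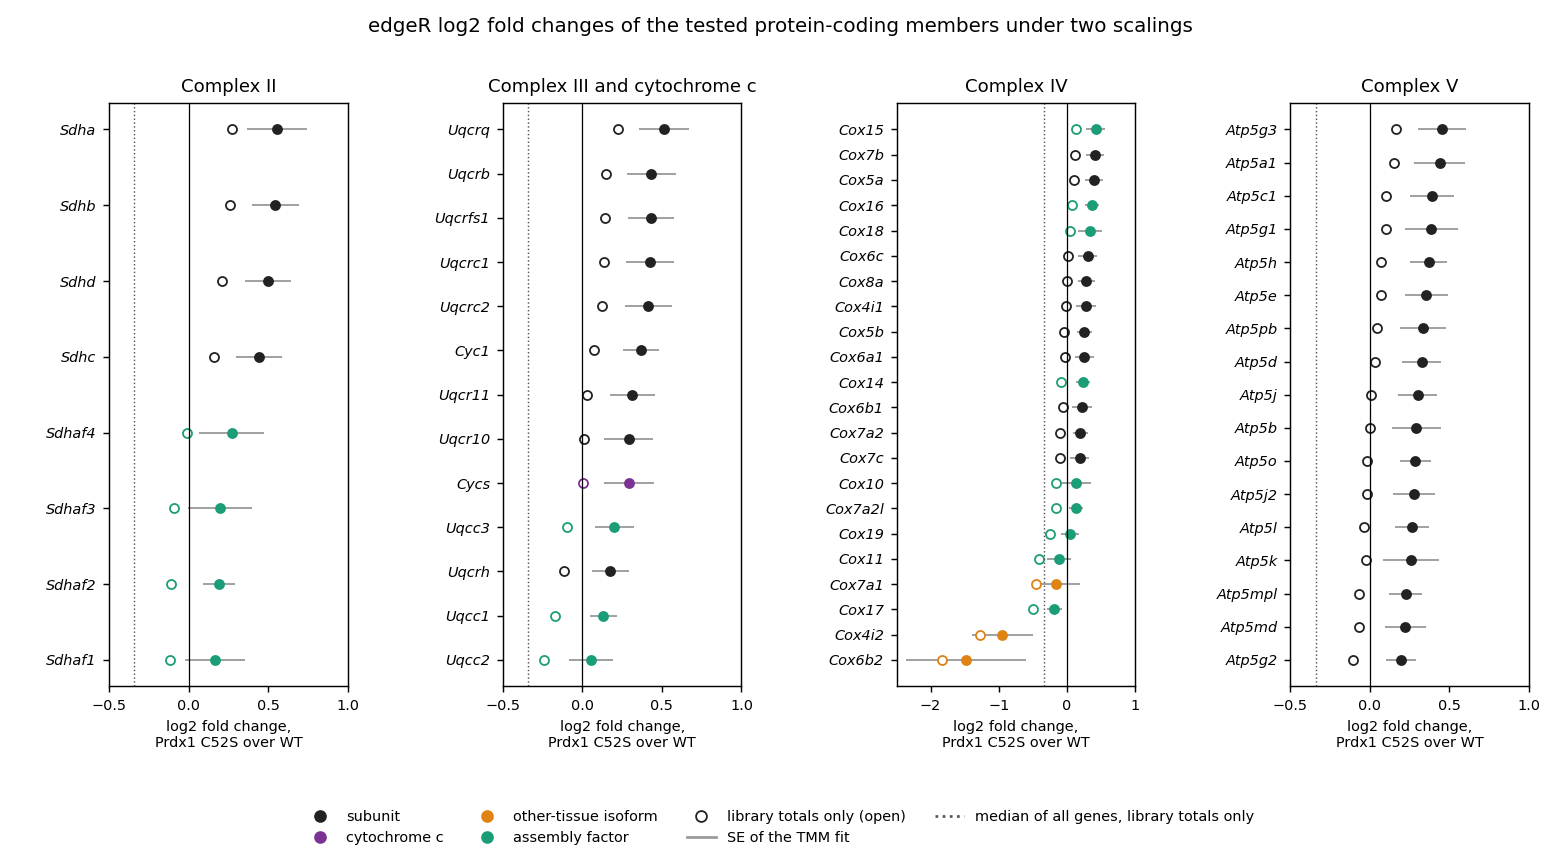
edgeR log2 fold changes (horizontal axis, Prdx1 C52S over WT) of the 60 tested protein-coding members, one per line, in a panel for each complex; filled points with SE bars use TMM factors, open points use library totals only, and the dotted line marks the median of all genes with library totals only (-0.34). The Sdh subunits are the top 4 of complex II under both scalings, and the complex IV panel has a wider axis to hold Cox4i2 and Cox6b2.

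Complex II had the highest levels relative to WT. Sdha encodes the flavoprotein that oxidises succinate, Sdhb the iron-sulfur protein that carries the electrons, and Sdhc and Sdhd the pair of haem-binding membrane anchors. Each of the 4 was higher in every Prdx1 C52S library than in any WT library, by 1.12-fold to 1.22-fold in mean FPKM. Such a split was found in 6.09% of all genes tested and 18.5% of those with at least 10 FPKM.

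Sdha (chr13:74322254-74350280, minus strand, GRCm38) had 126, 125 and 123 FPKM in Prdx1 C52S livers, against 110.1, 90 and 107 FPKM in WT livers. The lowest WT value was that of WT 8, and the Prdx1 C52S libraries lay within a few FPKM of each other. Means were 124.5 ± 1.58 and 102.3 ± 10.8 FPKM (SD, n = 3 each), a ratio of 1.22, or 1.15 without WT 8. The log2 fold change was 0.55 (edgeR, SE 0.19, adjusted p = 0.129), and 0.27 with library totals only. DESeq2 gave an adjusted p of 0.0279, and edgeR without WT 8 one of 0.043.

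Sdhb (chr4:140961203-140979193, plus strand) had 60.7, 63.8 and 61.6 FPKM in Prdx1 C52S livers, against 51.7, 48.2 and 54.8 FPKM in WT livers. The groups did not overlap, and again WT 8 was lowest. The log2 fold change was 0.54 (edgeR, SE 0.15, adjusted p = 0.101), or 0.26 with library totals only, and the adjusted p was 0.0159 in DESeq2 and 0.043 in edgeR without WT 8.

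The membrane anchors showed the same split of the groups. Sdhc (chr1:171127165-171150603, minus strand) had 39.8, 37.7 and 39.1 FPKM in Prdx1 C52S livers, against 35, 32.7 and 36.3 FPKM in WT livers. Sdhd (chr9:50596357-50603812, minus strand) had 141, 135 and 129 FPKM in Prdx1 C52S livers, against 114, 111 and 123 FPKM in WT livers. WT 8 was the lowest library for both, and without it the mean ratios were 1.09 for Sdhc and 1.14 for Sdhd. Their log2 fold changes were 0.44 for Sdhc (edgeR, SE 0.14, adjusted p = 0.121) and 0.50 for Sdhd (edgeR, SE 0.14, adjusted p = 0.107). With library totals only they were 0.16 and 0.21.

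**Figure D2:**
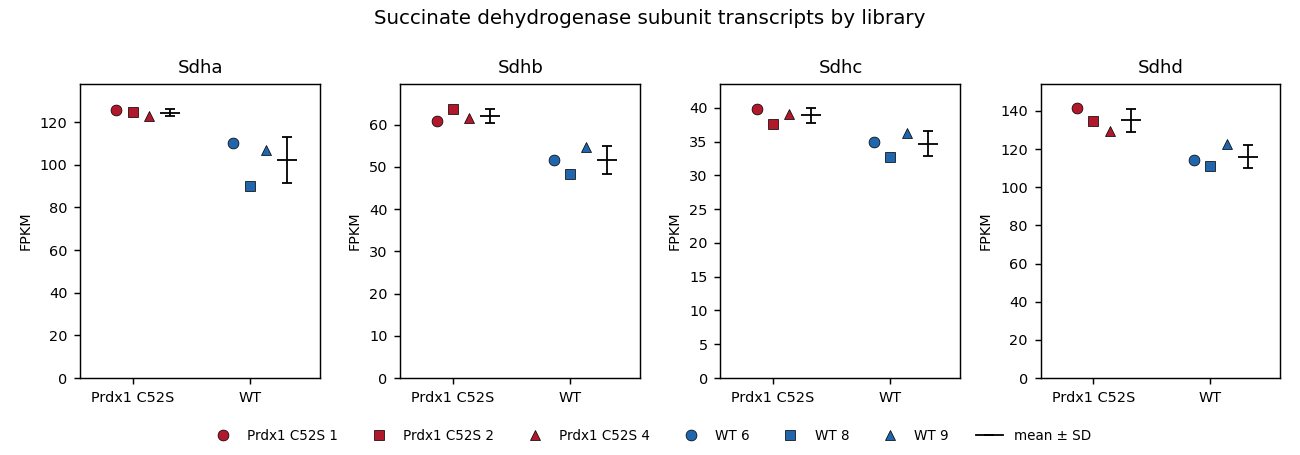
FPKM (vertical axes, from 0) of the 4 succinate dehydrogenase subunit genes in the 3 Prdx1 C52S and 3 WT libraries, one symbol per library, with the mean ± SD beside each group. In every panel the 3 Prdx1 C52S libraries lie above the 3 WT libraries and WT 8 is lowest; the difference of the means is largest for Sdha (124.5 against 102.3 FPKM on average).

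The 4 transcripts kept nearly fixed proportions. Sdha made up 34.2%, 34.6% and 34.8% of their summed FPKM in Prdx1 C52S libraries, against 35.4%, 31.9% and 33.3% in WT libraries. Sdhb held 16.5% to 17.7% against 16.6% to 17.1%, and Sdhd 36.6% to 38.4% against 36.8% to 39.4%. Sdhc alone had shares that did not overlap, at 10.8%, 10.4% and 11.1% against 11.2%, 11.6% and 11.3%. Sdhc was also the gene with the smallest fold change of the 4.

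Since the subunits lay together, the stretches upstream of their start sites are shown for the 3 of them with an entry in RefSeq's promoter windows (GRCm38.p6), as 150 bases ending at the base before the RefSeq start, on the gene's strand. Capitals mark letters of the NRF1 motif in its loose form GCGCANGC or of the ETS motif CCGGAAG on either strand. NRF1 and the ETS protein GABP are background regulators of many respiratory genes. For Sdha and Sdhb the gene start used in the table lies inside the stretch, upstream of the RefSeq start.
Sdha (chr13:74350241-74350390, minus strand): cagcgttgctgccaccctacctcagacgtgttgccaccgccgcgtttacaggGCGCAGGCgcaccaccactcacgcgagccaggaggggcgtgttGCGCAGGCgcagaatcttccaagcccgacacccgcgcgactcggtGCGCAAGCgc
Sdhb (chr4:140961121-140961270, plus strand): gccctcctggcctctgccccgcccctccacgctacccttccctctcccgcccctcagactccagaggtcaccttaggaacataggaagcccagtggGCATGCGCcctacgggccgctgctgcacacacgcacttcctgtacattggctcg
Sdhd (chr9:50603850-50603999, minus strand): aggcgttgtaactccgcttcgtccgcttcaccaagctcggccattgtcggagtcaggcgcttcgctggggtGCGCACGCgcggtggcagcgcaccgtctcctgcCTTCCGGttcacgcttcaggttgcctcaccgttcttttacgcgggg
Sdha holds 3 matches to the loose NRF1 letters, Sdhb 1 match to the strict form GCGCATGC (read on the other strand), and Sdhd 1 loose match and 1 ETS match.

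Over the full windows of 300 bases, 250 before and 50 after the start, 49 of the 62 protein-coding members had an entry. The strict NRF1 letters GCGCATGC were in 8 of 49 member windows (16.3%), against 3.05% of all 27025 gene windows. The loose form GCGCANGC, which contains the strict one and was added after the Sdha sequence was seen, was in 19 of 49 (38.8%), against 11.2%. By complex and without the assembly factors, the loose form was in 3 of 3 windows for complex II, 3 of 6 for complex III with cytochrome c, 1 of 11 for complex IV and 8 of 15 for complex V. The 3 complex II windows include that of Sdha, whose sequence prompted the loose form. In the same order, the strict form was in 1 of 3, 3 of 6, 1 of 11 and 3 of 15. The ETS motif was in 2 of 3, 2 of 6, 3 of 11 and 6 of 15 of these windows. ETS letters CCGGAAG were in 20 of 49 (40.8%), against 9.93%. YY1 letters AAGATGGC were in 5 of 49 (10.2%), against 3.19%, and the ERR letters TCAAGGTCA in 2 of 49 (4.1%), Sdhd and Atp5g3, against 0.466%. Both strands were searched for each motif. A match describes the letters in these windows and says nothing of binding.

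The 4 assembly factors of complex II did not share the level difference of the subunits in FPKM. Sdhaf2, which helps attach FAD to Sdha, had 2.75, 3.03 and 2.64 FPKM in Prdx1 C52S livers, against 2.73, 3.32 and 3.01 FPKM in WT livers. Sdhaf4, which binds the flavinated Sdha before it joins Sdhb, had 12.6, 11.6 and 10.2 FPKM in Prdx1 C52S livers, against 9.73, 10.7 and 14.1 FPKM in WT livers. Sdhaf1 and Sdhaf3, which act on the iron-sulfur clusters of Sdhb, also overlapped between groups. FPKM ratios of the 4 factors were 0.926 to 0.997, and their edgeR log2 fold changes were 0.16 to 0.27, turning to values between -0.12 and -0.01 with library totals only. For Sdhaf1, the lowest of the 4, the value was 0.16 (edgeR, SE 0.19, adjusted p = 0.617), or -0.12 with library totals only, and it was 0.02 without WT 8 and 0.38 without WT 9.

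Complex III came next in the order of complexes. For its 9 subunit genes the median FPKM ratio was 1.10, and the median log2 fold change 0.41 (0.13 with library totals only). All 9 were positive with TMM factors and 8 with library totals only, the exception being Uqcrh. Of the FPKM groups, 2 genes were higher without overlap and 1 was lower, against 6.09% and 36.7% of all genes tested. Of those with at least 10 FPKM, 18.5% were higher and 28.4% lower, so the count of 2 is near the share at this level.

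Uqcrq, a small subunit that contacts cytochrome b, showed the widest difference of the complex. It had 80.1, 85.9 and 89.3 FPKM in Prdx1 C52S livers, against 70, 67.8 and 79.1 FPKM in WT livers. The lowest Prdx1 C52S library lay just above WT 9, and the groups did not overlap. The log2 fold change was 0.51 (edgeR, SE 0.16, adjusted p = 0.114; DESeq2 adjusted p = 0.0304), or 0.23 with library totals only.

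Cyc1 encodes the haem-bearing cytochrome c1. Its level was 65.6, 65 and 68.2 FPKM in Prdx1 C52S livers, against 60.3, 65.1 and 62.4 FPKM in WT livers. WT 8 was here among the Prdx1 C52S values. The log2 fold change was 0.37 (edgeR, SE 0.11, adjusted p = 0.113; DESeq2 adjusted p = 0.0364), or 0.07 with library totals only.

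Uqcrfs1, the Rieske iron-sulfur protein, had 120.5, 112 and 116 FPKM in Prdx1 C52S livers, against 100.4, 101 and 113 FPKM in WT livers, with WT 9 inside the Prdx1 C52S range. Uqcrc1, a core protein on the matrix side, had 44, 45 and 43.4 FPKM in Prdx1 C52S livers, against 40.4, 37.2 and 41.8 FPKM in WT livers. Uqcrc1 and Uqcrq were the 2 complex III genes that were higher in Prdx1 C52S without overlap. The log2 fold changes were 0.43 for Uqcrfs1 (edgeR, SE 0.14, adjusted p = 0.128) and 0.42 for Uqcrc1 (edgeR, SE 0.15, adjusted p = 0.141), and each was 0.14 with library totals only.

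Uqcr10, a small transmembrane subunit and the most abundant complex III transcript by its mean over the groups, had 127, 124 and 133 FPKM in Prdx1 C52S livers, against 122, 116 and 141 FPKM in WT livers. Its groups overlapped fully. Uqcrh, the hinge protein beside cytochrome c1, was the opposite case, with 68.1, 68.8 and 66.9 FPKM in Prdx1 C52S livers, against 68.9, 74.5 and 76.5 FPKM in WT livers. It was lower in each Prdx1 C52S library, by less than 0.1 FPKM at the nearest pair, and its log2 fold change was 0.18 with TMM factors and -0.12 with library totals only (edgeR adjusted p = 0.368 with TMM factors). Uqcrb and Uqcrc2 were at 1.12 and 1.10 times their WT mean, and Uqcr11 at 1.03 times.

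Cytochrome c, encoded by Cycs, shuttles electrons between complexes III and IV. Cycs had 34.2, 34.4 and 35.6 FPKM in Prdx1 C52S livers, against 31.7, 32.4 and 39.1 FPKM in WT livers, a ratio of 1.01. Its transcripts share 22.6% of their stretches of 100 bases with 2 processed copies (Gm10053 and Gm10108), so reads could be divided among them. The factors Uqcc1, Uqcc2 and Uqcc3, which act on newly made cytochrome b, had FPKM ratios of 0.893, 0.849 and 0.941, all with overlapping groups. Uqcc2, at a log2 fold change of 0.05 (edgeR, SE 0.14, adjusted p = 0.836), was the lowest member of complex III, and with library totals only it was at -0.24.

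Complex IV subunits were the lowest of the 4 complexes relative to WT. Its 10 subunit genes of the liver form had a median FPKM ratio of 0.988 and a median log2 fold change of 0.27, or -0.03 with library totals only, where 3 were positive and 7 negative. Without WT 8 the median was 0.17. Of the 10, Cox7b was higher without overlap and Cox7c lower, against 6.09% and 36.7% of all genes tested and 18.5% and 28.4% of those with at least 10 FPKM.

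Cox6a1, Cox8a and Cox4i1 were the most abundant transcripts of complex IV. Cox6a1 had 222, 225 and 222 FPKM in Prdx1 C52S livers, against 218, 222 and 241 FPKM in WT livers. Cox8a had 188, 179.9 and 184 FPKM in Prdx1 C52S livers, against 179, 179 and 192 FPKM in WT livers. Cox4i1, the subunit at which ATP acts on the enzyme, had 171, 175 and 181 FPKM in Prdx1 C52S livers, against 174, 173 and 183 FPKM in WT livers. All 3 overlapped between groups, with ratios of 0.981 for Cox6a1 and 0.996 for Cox4i1 and means of 183.8 and 183.3 FPKM for Cox8a, and each fold change was positive with TMM factors and negative with library totals only.

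Cox7b, needed for assembly of the complex, had 107.2, 108 and 108.4 FPKM in Prdx1 C52S livers, against 89.9, 99 and 107.2 FPKM in WT livers. The highest WT library, WT 9, lay just below the lowest Prdx1 C52S library. Its log2 fold change was 0.41 (edgeR, SE 0.13, adjusted p = 0.122), or 0.12 with library totals only. Cox5a, a matrix-facing subunit, had a log2 fold change of 0.40 (edgeR, SE 0.13, adjusted p = 0.129), or 0.11 with library totals only, with 48, 46.2 and 47.6 FPKM in Prdx1 C52S livers, against 42.1, 41.9 and 46.6 FPKM in WT livers. WT 9 lay between the Prdx1 C52S libraries for this gene.

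Cox7c had 109, 105 and 110.2 FPKM in Prdx1 C52S livers, against 112, 113 and 123 FPKM in WT livers. The Prdx1 C52S libraries were all lower, with a ratio of 0.935, yet the log2 fold change was 0.18 with TMM factors and -0.10 with library totals only. Cox7c shares 16.2% of its stretches with 2 processed copies (Gm10012 and Gm12338). Cox6b1, on the cytochrome c side, had a ratio of 0.962 and Cox7a2 one of 0.936, both with overlapping groups and both negative with library totals only (-0.06 and -0.10, against 0.22 and 0.19 with TMM factors). Cox5b and Cox6c were at 0.978 and 1.02 times their WT mean.

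Cox17, Cox11 and Cox19 had the lowest fold changes of the complex IV assembly factors taken by the rule, and they are set side by side here after their values were seen. Cox17, the copper chaperone of the intermembrane space, had 2.87, 2.92 and 3.38 FPKM in Prdx1 C52S livers, against 3.58, 5.09 and 4.18 FPKM in WT livers. Cox11, which delivers copper to the CuB centre, had 3.84, 3.55 and 3.49 FPKM in Prdx1 C52S livers, against 4.05, 4.92 and 5.45 FPKM in WT livers. Cox19, a partner of Cox11 in copper delivery, had 11.8, 11.2 and 13.3 FPKM in Prdx1 C52S livers, against 13.9, 13.8 and 15 FPKM in WT livers. The groups of all 3 genes stayed apart, each lower in Prdx1 C52S, as were those of 7 of 66 members against 36.7% of all genes tested.

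The mean FPKM ratios of the copper factors were 0.713 for Cox17, 0.755 for Cox11 and 0.849 for Cox19. With TMM factors the log2 fold changes were -0.18 for Cox17 (edgeR, SE 0.11, adjusted p = 0.331), -0.12 for Cox11 (edgeR, SE 0.18, adjusted p = 0.714) and 0.04 for Cox19 (edgeR, SE 0.14, adjusted p = 0.862). With library totals only they were -0.50, -0.41 and -0.24, and the median gene was at -0.34. WT 8 was the highest library for Cox17 and WT 9 for Cox11 and Cox19. Sco2 and Sco1, copper-delivery factors outside the rule, lay on the other side. Sco2 had 2.68, 5.8 and 6.17 FPKM in Prdx1 C52S livers, against 2.24, 2.56 and 3.51 FPKM in WT livers, with overlap and a ratio of 1.76 (log2 fold change 1.09, edgeR adjusted p = 0.129; DESeq2 adjusted p = 0.0268), and Sco1 had a ratio of 1.09. Coa4 and Coa6, also complex IV factors outside the rule, had ratios of 0.70, lower than Cox17, and 0.893. The log2 fold change of Coa6 was 0.10 with TMM factors and -0.17 with library totals only.

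Cox15 and Cox10 make haem A, the group unique to complex IV. Cox15 had 5.26, 4.84 and 5.19 FPKM in Prdx1 C52S livers, against 4.03, 4.6 and 5.23 FPKM in WT livers, and its log2 fold change of 0.42 (edgeR, SE 0.14, adjusted p = 0.126; 0.13 with library totals only) was the highest of the complex. Cox10 was at 0.902 times its WT mean with overlapping groups. Cox16, which acts on the newly made copper-bearing subunit, had a log2 fold change of 0.36 (edgeR, SE 0.10, adjusted p = 0.104; 0.07 with library totals only) and a ratio of 1.05, but 51.7% of its stretches are shared with the overlapping gene Gm20498, so its level is uncertain. Cox14 and Cox18 had ratios of 0.951 and 1.04.

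Cox7a2l encodes a factor that links complexes III and IV into a supercomplex. It had 53.5, 55.6 and 54 FPKM in Prdx1 C52S livers, against 62.2, 63.8 and 56.3 FPKM in WT livers. Every Prdx1 C52S library was lower, although WT 9 lay less than 1 FPKM above the highest of them. The log2 fold change was 0.13 (edgeR, SE 0.11, adjusted p = 0.466), or -0.17 with library totals only.

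The 5 isoforms of other tissues were near the lower end of detection. Cox4i2, the isoform of lung that is known to respond to oxygen, had 0.213, 0.156 and 0.195 FPKM in Prdx1 C52S livers, against 0.374, 0.644 and 0.406 FPKM in WT livers, on 11 to 43 estimated counts. The groups did not overlap, and Cox4i2 made up 0.0891% to 0.124% of the summed FPKM of Cox4i1 and Cox4i2 in Prdx1 C52S libraries, against 0.215% to 0.371% in WT libraries. Its log2 fold change was -0.95 (edgeR, SE 0.45, adjusted p = 0.229), or -1.27 with library totals only.

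Cox6b2, known from testis, had 0.0758, 0.0453 and 0.439 FPKM in Prdx1 C52S livers, against 0.605, 1.2 and 0.264 FPKM in WT livers, and the groups overlapped. Its log2 fold change was -1.48 with an SE of 0.88 (edgeR adjusted p = 0.323), the lowest value of any member, or -1.84 with library totals only. Leaving out 1 library moved it to -0.99 without WT 8 and to -2.98 without Prdx1 C52S 4. Cox7a1, an isoform of heart and skeletal muscle, had 0.993, 1.12 and 1.21 FPKM in Prdx1 C52S livers, against 1.11, 1.64 and 1.85 FPKM in WT livers. The muscle isoforms Cox6a2 and Cox8b did not pass the filter; Cox8b was listed at 0 in all 3 WT libraries and in 1 Prdx1 C52S library, and reached 0.46 FPKM in Prdx1 C52S 2. Of 4 skeletal muscle markers in the table, which summed to 0.201 to 0.431 FPKM in Prdx1 C52S livers, against 0.423 to 0.729 FPKM in WT livers, Mylpf was detected in every library (means of 0.249 and 0.428 FPKM, with overlap). Acta1 averaged 0.0219 and 0.075 FPKM, and Ckm was at 0 in 5 of 6 libraries and at 0.0153 FPKM in Prdx1 C52S 2. The part of muscle RNA in the level of Cox7a1 was not tested.

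**Figure D3:**
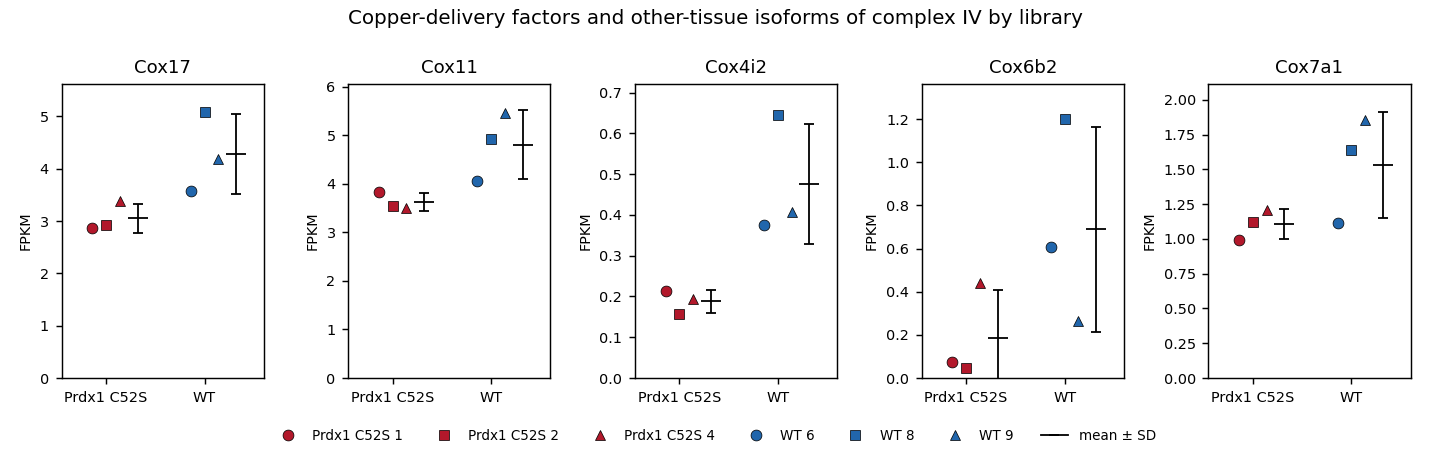
FPKM (vertical axes, from 0, a separate scale in each panel) of the copper factors Cox17 and Cox11 and of the isoforms Cox4i2, Cox6b2 and Cox7a1 in each library, with the mean ± SD beside each group. The Prdx1 C52S libraries lie below all WT libraries for Cox17, Cox11 and Cox4i2, and the groups overlap for Cox6b2 and Cox7a1.

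Markers of other cells differed between the groups beside these low-level members, some lower and some higher. The summed FPKM of the 6 cholangiocyte markers was 131, 62.8 and 66 in Prdx1 C52S livers, against 356, 822 and 228 in WT livers, and 6 of 6 had a negative log2 fold change. The 5 macrophage markers summed to 158, 131 and 155 FPKM in Prdx1 C52S livers, against 371, 356 and 327 FPKM in WT livers, and the 4 T cell markers to 0.611, 0.764 and 0.625, against 3.57, 4.87 and 2.34. The 5 stellate cell markers summed to 48.5 to 59.4 FPKM, against 63.1 to 89.2 FPKM. Col1a1, Dcn and Des were lower without overlap, against 36.7% of all genes tested. Lrat and Reln were at 1.35 and 1.22 times their WT mean, or 1.09 and 1.01 times without WT 8. All 5 Kupffer cell markers, all 4 sinusoidal endothelium markers and all 3 erythroid markers had positive log2 fold changes with TMM factors, with medians of 0.47, 0.40 and 2.03, and 2 of the Kupffer cell and 1 of the endothelium markers were negative with library totals only. Their summed FPKM in Prdx1 C52S and WT livers was 162 to 206 against 35.2 to 267 for Kupffer cells, 37.3 to 43.9 against 10.4 to 47.2 for endothelium, and 170.0 to 697 against 90.7 to 183 for erythroid cells. WT 8 was lowest for Kupffer cells and endothelium. WT 6 and WT 9 summed to 237 and 267 for Kupffer cells and to 44.5 and 47.2 for endothelium. Without WT 8, Clec4f, Cd5l and Vsig4 were at -0.08, -0.28 and -0.42, and Marco and Timd4 at 0.94 and 1.0. Stab2 and Lyve1 were then at -0.15 and -0.16, and Oit3 and Clec4g at 0.06 and 0.18. In bulk tissue, fewer cells of a type and less RNA per cell cannot be told apart, and the part of these cells in the levels of Cox4i2, Cox6b2, Cox17 or Cox11 was not tested.

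Complex V, the ATP synthase, had 17 subunit genes with log2 fold changes between 0.20 and 0.45 with TMM factors, all positive, of which 10 were positive and 7 negative with library totals only. Its median was 0.30, or 0.01 with library totals only, and the median FPKM ratio was 1.01. The 3 genes higher without overlap were Atp5a1, Atp5c1 and Atp5g3, against 6.09% of all genes tested and 18.5% of those with at least 10 FPKM, so the count is near the share at this level.

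Atp5a1 and Atp5b encode the alpha and beta subunits that form the catalytic head in equal numbers. Atp5a1 had 265, 256 and 260.1 FPKM in Prdx1 C52S livers, against 235, 226 and 238 FPKM in WT livers. Atp5b had 236, 223 and 229.7 FPKM in Prdx1 C52S livers, against 228, 228.1 and 228 FPKM in WT livers. The groups stayed apart for the alpha subunit and overlapped for the beta subunit. Their log2 fold changes were 0.44 for Atp5a1 (edgeR, SE 0.16, adjusted p = 0.146; DESeq2 adjusted p = 0.0309) and 0.29 for Atp5b (edgeR, SE 0.16, adjusted p = 0.272), or 0.15 and 0.00 with library totals only.

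Atp5c1 encodes the rotating gamma shaft. It had 106, 106 and 103 FPKM in Prdx1 C52S livers, against 98.4, 94 and 98.9 FPKM in WT livers, with no overlap. Its log2 fold change was 0.39 (edgeR, SE 0.14, adjusted p = 0.141), or 0.10 with library totals only.

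Atp5g1, Atp5g2 and Atp5g3 encode the same mature c subunit of the membrane ring behind different targeting peptides. Atp5g3, the main liver gene of the 3, had 115, 110.5 and 118 FPKM in Prdx1 C52S livers, against 100.5, 96.4 and 108 FPKM in WT livers. Atp5g2 had 40.9, 42.7 and 43.6 FPKM in Prdx1 C52S livers, against 43.1, 48.5 and 44.3 FPKM in WT livers. Atp5g3 had the highest fold change of complex V and Atp5g2 the lowest.

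Within the summed FPKM of the c-subunit genes, Atp5g3 held 66.7%, 65.3% and 67.1% in Prdx1 C52S libraries, against 64.3%, 60.7% and 63.7% in WT libraries. Atp5g2 held 23.7%, 25.2% and 24.7%, against 27.6%, 30.5% and 26.2%, and Atp5g1 overlapped at 8.2% to 9.6% against 8.13% to 10.1%. These shares do not depend on the scaling of the libraries. The log2 fold changes were 0.45 for Atp5g3 (edgeR, SE 0.15, adjusted p = 0.128; DESeq2 adjusted p = 0.0396), 0.39 for Atp5g1 (edgeR, SE 0.17, adjusted p = 0.194) and 0.20 for Atp5g2 (edgeR, SE 0.10, adjusted p = 0.240). With library totals only, Atp5g3 was at 0.17, Atp5g1 at 0.10 and Atp5g2 at -0.10. Atp5g2 shares 34.7% of its stretches with the copies Gm10175 and Gm10231.

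In the stator that holds the head in place, Atp5h, the d subunit, had 78.1, 83.6 and 80.2 FPKM in Prdx1 C52S livers, against 70.1, 79.4 and 79.2 FPKM in WT livers. Atp5o, the oligomycin sensitivity subunit at the top of the stator, had 51.2, 54.4 and 51.4 FPKM in Prdx1 C52S livers, against 48, 58.8 and 51.3 FPKM in WT livers. The groups of both overlapped, and WT 8 held the highest WT level of each. Their log2 fold changes were 0.37 for Atp5h (edgeR, SE 0.12, adjusted p = 0.120) and 0.29 for Atp5o (edgeR, SE 0.10, adjusted p = 0.132), and with library totals only 0.07 and -0.02. Atp5h shares 11.5% of its stretches with Gm10250. Atp5pb, Atp5d, Atp5e and Atp5j, which belong to the stalks, had ratios of 1.04, 1.03, 1.06 and 1.01, and Atp5j overlaps the regulator gene Gabpa on the other strand. The membrane subunits Atp5j2, Atp5k, Atp5l, Atp5md and Atp5mpl had ratios between 0.959 and 0.996, all with overlapping groups.

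Across the whole set, 10 of 66 tested members had FPKM groups that did not overlap with Prdx1 C52S higher, against 6.09% of all genes tested and 18.5% of those with at least 10 FPKM. These were the 4 Sdh genes, Uqcrc1, Uqcrq, Cox7b, Atp5a1, Atp5c1 and Atp5g3. The 7 members that were lower without overlap were Uqcrh, Cox7c, Cox7a2l, Cox11, Cox17, Cox19 and Cox4i2, where the background is 36.7% of all genes and 28.4% of those with at least 10 FPKM. Of the 16 assembly factors, 0 were higher without overlap and 4 were lower. The 6 tested pseudogenes had log2 fold changes between 0.02 and 0.52 with edgeR adjusted p from 0.274 up, and all their groups overlapped.

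Summing the subunits by complex gave the balance between complexes within each library. The scaling between libraries cancels in ratios of these sums within a library, but not in the sums or their ratios between groups. Complex II summed to 368, 361 and 353 FPKM in Prdx1 C52S livers, against 311, 282 and 321 FPKM in WT livers, a ratio of 1.18 (1.14 without WT 8). Complex III summed to 771, 772 and 783 FPKM, against 701, 693 and 784 FPKM, and complex IV to 1135, 1128 and 1144 FPKM, against 1101, 1125 and 1210.0 FPKM. Complex V summed to 1260.0, 1242 and 1259 FPKM, against 1165, 1193 and 1235 FPKM.

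The ratio of complex II to complex IV was 0.324, 0.32 and 0.308 in Prdx1 C52S livers, against 0.283, 0.251 and 0.265 in WT livers. The ratio of complex III to complex IV was 0.68, 0.684 and 0.685 in Prdx1 C52S livers, against 0.637, 0.616 and 0.648 in WT livers. That of complex IV to complex V was 0.901, 0.908 and 0.909, against 0.946, 0.942 and 0.98. None of these 3 ratios overlapped between groups. Complex IV took 32.1% to 32.3% of the 4 sums in Prdx1 C52S livers, against 33.6% to 34.2% in WT livers. Complex II took 9.97% to 10.4%, against 8.56% to 9.49%. The ratio of complex III to complex V overlapped, at 0.612 to 0.622 against 0.581 to 0.635. With 3 libraries a group, an exact permutation test of a single such value cannot give a two-sided p below 0.1, and none was run on these sums.

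**Figure D4:**
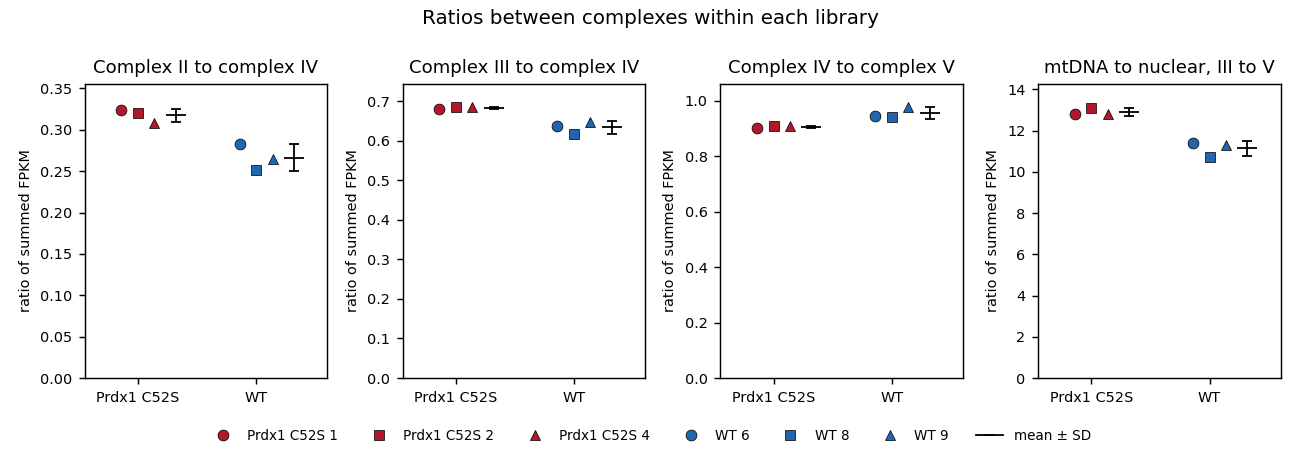
Ratios of summed subunit FPKM within each library (vertical axes, from 0): complex II to IV, complex III to IV, complex IV to V, and mitochondrially encoded to nuclear subunits of complexes III to V, with the mean ± SD beside each group. The Prdx1 C52S libraries lie above the WT libraries in the panels other than complex IV to V, and below them there (0.901 to 0.909 against 0.942 to 0.98).

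The assembly factors, apart from Cox7a2l, amounted to 2.77%, 2.68% and 2.74% of the subunit FPKM in Prdx1 C52S livers, against 2.87%, 3.34% and 3.17% in WT livers. This share was lower in each Prdx1 C52S library, and the WT range was wider. The part of the lower level of the assembly factors in this was not tested. All 40 subunits together made up 0.859% to 0.9% of the summed FPKM of all genes in Prdx1 C52S livers, against 0.845% to 0.919% in WT livers, so the total overlapped while the shares of complexes II and IV did not.

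The partner subunits made from mitochondrial DNA were measured in the same libraries. The 6 of complexes III to V (mt-Cytb of complex III, mt-Co1, mt-Co2 and mt-Co3 of the catalytic core of complex IV, and mt-Atp6 and mt-Atp8 of the proton channel side of complex V) were all higher without overlap in Prdx1 C52S. Such a split was found in 6.09% of all genes tested and 18.5% of those with at least 10 FPKM. Their summed FPKM was 40643, 41308 and 40824 in Prdx1 C52S livers, against 33900.0, 32229 and 36372 in WT livers. The ratio to the nuclear subunits of the same complexes was 12.8, 13.1 and 12.8, against 11.4, 10.7 and 11.3.

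Of these, mt-Cytb had the highest log2 fold change, 0.61 (edgeR, SE 0.21, adjusted p = 0.131; 0.32 with library totals only), with 6479, 6884 and 6551 FPKM in Prdx1 C52S livers, against 5281, 4840.0 and 5686 FPKM in WT livers. The lowest was mt-Co3, at 0.44 (edgeR, SE 0.18, adjusted p = 0.179; 0.15 with library totals only). The other 4 were at 0.53 for mt-Co1, 0.47 for mt-Co2, 0.59 for mt-Atp6 and 0.55 for mt-Atp8. With library totals only these were 0.25, 0.19, 0.30 and 0.27. None of the 6 passed edgeR's adjusted threshold with all libraries, and 4 (mt-Cytb, mt-Co1, mt-Atp6 and mt-Atp8) passed without WT 8, against 2.70% of all genes. All 6 were higher at an unadjusted p under 0.05, against 11.5% of all genes and 32.2% of those with at least 10 FPKM. DESeq2 called 6 of 6 with adjusted p up to 0.0334, against 6.11% of all genes.

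Of 28 other assembly factors of complexes II to V in the table, 24 had a positive log2 fold change and 4 a negative one with TMM factors, and 17 were negative with library totals only. At an unadjusted p under 0.05, 11 were higher and 1 lower, against 11.5% and 14.8% of all genes, and none passed the adjusted threshold. Taco1, which activates translation of mt-Co1, had 13.7, 14.2 and 13.9 FPKM in Prdx1 C52S livers, against 11.1, 9.66 and 12 FPKM in WT livers (log2 fold change 0.62, edgeR SE 0.17, adjusted p = 0.0975; 0.34 with library totals only). Coa5, a complex IV factor, was at 0.50 (edgeR, SE 0.15, adjusted p = 0.109; 0.21 with library totals only). Both passed the adjusted threshold without WT 8. The lower one was Atpif1, the inhibitor that holds the ATP synthase from running backwards, with 8.85, 7.26 and 7.39 FPKM in Prdx1 C52S livers, against 10.2, 19.5 and 11.4 FPKM in WT livers. WT 8 was far above the other WT libraries, and the log2 fold change was -0.48 with all libraries (edgeR, SE 0.18, adjusted p = 0.151), -0.27 without WT 8 and -0.81 with library totals only.

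Of 14 regulators of respiratory genes, 7 had a positive and 7 a negative log2 fold change with TMM factors, and 12 were negative with library totals only. In FPKM, Sirt3 was higher without overlap and 4 were lower, Sp1 (ratio 0.661), Pprc1 (0.736), Esrra (0.774) and Polrmt (0.774), against 6.09% and 36.7% of all genes. At an unadjusted p under 0.05 with TMM factors, Tfam, Sirt3 and Yy1 were higher and Sp1 lower, against 11.5% and 14.8% of all genes. With library totals only, no regulator was higher at that level, against 3.73% of all genes. Sp1, Pprc1, Esrra and Polrmt were then lower, against 30.4%. Tfam, which packages and transcribes mitochondrial DNA, had 9.27, 9.39 and 8.48 FPKM in Prdx1 C52S livers, against 7.86, 9 and 8.59 FPKM in WT livers (log2 fold change 0.38, edgeR SE 0.10, adjusted p = 0.0965; 0.08 with library totals only). Sirt3, a mitochondrial deacetylase, was at 0.53 (edgeR, SE 0.18, adjusted p = 0.132; 0.25 with library totals only). The coactivator Ppargc1a had 1.25, 0.809 and 1.15 FPKM in Prdx1 C52S livers, against 1.74, 1.6 and 1.02 FPKM in WT livers, with overlap. Nrf1 was at -0.12 and Gabpa at 0.14 (edgeR adjusted p = 0.706 and 0.344), and with library totals only at -0.46 and -0.16; Nrf1 was at 0.06 without WT 8.

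Of the carriers that serve complex V, the phosphate carrier Slc25a3 had 45.2, 41.6 and 44.8 FPKM in Prdx1 C52S livers, against 45.2, 50.7 and 48.9 FPKM in WT livers, lower without overlap, with a log2 fold change of 0.15 with TMM factors and -0.15 with library totals only. Slc25a5, the main adenine nucleotide carrier of liver, had 285, 253 and 268 FPKM in Prdx1 C52S livers, against 246, 221 and 244 FPKM in WT livers (log2 fold change 0.45, edgeR SE 0.17, adjusted p = 0.148; 0.17 with library totals only). Slc25a4, the isoform of heart and muscle, had 4.11, 2.62 and 3.44 FPKM in Prdx1 C52S livers, against 6.93, 13.3 and 6.13 FPKM in WT livers. The groups of both adenine nucleotide carriers stayed apart, in opposite directions. Of all genes tested, 6.09% were higher and 36.7% lower without overlap, and of those with at least 10 FPKM 18.5% and 28.4%. WT 8 was highest for Slc25a4. Its log2 fold change was -1.04 (edgeR, SE 0.25, adjusted p = 0.0874), -0.76 without WT 8 and -1.38 with library totals only.

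Ucp2, an inner membrane carrier of the uncoupling protein family that is also expressed in macrophages, had 7.08, 5.21 and 6.81 FPKM in Prdx1 C52S livers, against 14.4, 16 and 13.9 FPKM in WT livers. The log2 fold change was -0.92 (edgeR, SE 0.13, adjusted p = 0.0553; 0.0144 without WT 8), or -1.22 with library totals only. The macrophage marker Lyz2 had 126, 106 and 124 FPKM in Prdx1 C52S livers, against 314.3, 314.2 and 277 FPKM in WT livers, and its part in the level of Ucp2 was not tested. Of the 3 brown fat markers, Ucp1 was listed at 0 in all 3 Prdx1 C52S libraries and at no more than 0.0223 FPKM in WT libraries. Cidea and Elovl3 were higher without overlap, against 6.09% of all genes tested and 18.5% of those with at least 10 FPKM. Cidea averaged 47.1 and 14.3 FPKM and Elovl3 45.1 and 8.59 FPKM in Prdx1 C52S and WT livers.

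Of the 6 hepatocyte markers, Alb and Ttr were higher without overlap and Cps1 and Apoa1 lower. Such splits were found in 6.09% and 36.7% of all genes tested, and in 18.5% and 28.4% of those with at least 10 FPKM. Alb had 21170, 22280 and 20760 FPKM in Prdx1 C52S livers, against 19650, 18120 and 18360 FPKM in WT livers, a ratio of 1.14. Cps1, the first enzyme of the urea cycle, averaged 294 and 434 FPKM in Prdx1 C52S and WT livers, and Apoa1 3063 and 3668 FPKM. The 6 hepatocyte markers, a sum in which Alb dominates, came to 27584, 29267 and 28304 FPKM, against 26641, 25474 and 25145 FPKM, and 5 of 6 had a positive log2 fold change with TMM factors and 3 with library totals only. The 4 pericentral markers summed to 2697, 3390.0 and 2808 FPKM, against 2233, 600.0 and 2125 FPKM, and the 4 periportal markers to 412, 400.0 and 493 FPKM, against 379, 325 and 329 FPKM. Of the periportal markers, Cyp2f2 averaged 298.5 and 157.4 FPKM and Hal 24.9 and 19.9 FPKM in Prdx1 C52S and WT livers. Sds and Gls2 went the other way, Sds at 64.2 and 108.7 FPKM and Gls2 at 47.6 and 58.25 FPKM. The ratio of Gls2 was 0.817, or 1.07 without WT 8. The part of hepatocyte content or zone in the levels of the Sdh genes was not tested.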

How the data were processed

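Poly(A) RNA of 6 liver libraries was read as pairs of 150 bases, with unique molecular identifiers and dUTP-marked second strands, per the labels' protocols. Per the submitters' processing notes, StringTie 1.3.4d, HISAT2 2.0.4, cutadapt 1.9, edgeR, DESeq2 and UMI-tools were involved, their roles unstated. Nothing read here says whether counting used the strand or collapsed identifiers. Per the file headers, the authors deposited FPKM and estimated counts for each gene and library. The notes name mm9, but 64 of the 71 members have exactly their GENCODE M21 coordinates, and coordinates are therefore given on GRCm38.

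The estimated counts are worth about 4 per fragment (6204 values were at 4, 3538 at 3 and 1965 at 5), so low genes are less precise than count models assume. They were rounded and tested with edgeR 4.0.16 (R 4.3.3): filterByExpr, TMM factors (0.883 to 0.92 in the Prdx1 C52S libraries, 1.03 to 1.28 in the WT ones), robust quasi-likelihood F-tests, two-sided, Benjamini-Hochberg adjusted over 18931 genes, threshold 0.05. The biological coefficient of variation common to all genes came to 0.31 (0.245 without WT 8). DESeq2 1.42.0, limma 3.58.1 on log2(FPKM + 1) and log2(FPKM + 0.1), voom with library quality weights, other scalings and filters, and leaving out each library were alternatives. No libraries were identical, and the code was tested on simulated data.

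Named were, per complex, the 2 most abundant subunits, the 4 smallest p, the highest and lowest fold change, all Sdh subunits, the isoform families, and named partners. Genes named beyond this, including Uqcrh, Cox7c, Cox17, Cox11, Cox19, Coa4, Coa6, Sco1 and Sco2, were chosen after their values were seen. The members and lists were chosen with earlier results of these data known. Sharing was counted as the percent of stretches of 100 bases of a gene's GENCODE M21 transcripts found in another gene's, and 5 protein-coding members exceeded 10%.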

Additional observations from a re-analysis of the deposited data

How the results depend on the processing

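The number of members with an edgeR adjusted p under 0.05 and a higher level was 0, but 8 with DESeq2, 14 with voom and 0 to 2 when each library was left out. The share of all genes called by voom was not counted, so the 14 cannot be set against a background. At an unadjusted p under 0.05 the 26 higher members became 2 with library totals only, 2 with limma on log2(FPKM + 1) or log2(FPKM + 0.1), 2 with library totals only and WT 8 left out (a setting added after seeing the data), and 6 to 40 when each library was left out; the 0 lower members became 3, 3, 4, 2 and 0 to 1. The median log2 fold change of complex II (0.36 with TMM) was 0.0718 with library totals only, 0.084 and 0.0867 with limma at pseudocounts 1 and 0.1, and 0.0373 with library totals only and WT 8 left out. In the same order, complex III with cytochrome c was at 0.029, 0.0398, 0.0403 and -0.0188, complex IV at -0.0729, -0.0532, -0.0553 and -0.0762, and complex V at 0.00621, 0.0155, 0.016 and 0.0323. Leaving out each library moved these medians, with TMM, from 0.238 to 0.525 for complex II, 0.182 to 0.446 for complex III with cytochrome c, 0.124 to 0.337 for complex IV and 0.233 to 0.406 for complex V, each lowest without WT 8 and highest without WT 9. TMM factors add 0.306 to every log2 fold change at the median gene, and the further differences were not tested for a cause. Again in that order, these members changed sign: Sdhaf1 (-0.118, -0.0829, -0.0984, -0.178), Uqcc2 (-0.244, -0.217, -0.228, -0.191), Cox4i1 (-0.0146, -0.00605, -0.00608, -0.0301), Cox6a1 (-0.0355, -0.0255, -0.0256, -0.0525), Cox6b1 (-0.0648, -0.0543, -0.0546, -0.107), Cox7a2 (-0.103, -0.0937, -0.0948, -0.0762), Cox7a2l (-0.168, -0.155, -0.157, -0.132) and Atp5g2 (-0.103, -0.091, -0.0928, -0.052). With library totals only, Cox8a was at -0.00494 (-0.0226 with WT 8 left out) and Atp5o at -0.0186, and Atp5o was at -0.00552 and -0.00554 with limma. With library totals only and WT 8 left out, Cycs was at -0.0374 and Uqcr10 at -0.0496. Leaving out each library put Uqcc2 between -0.0233 (without WT 6) and 0.191, and Cox7a1 between -0.315 and 0.0714 (without WT 9). Of 494 values of single named members under these alternatives, 430 kept their direction and side of the threshold, 23 passed it and 41 changed sign. RLE size factors, no filter and counts divided by 4 changed no direction or call of the named members that they tested. With counts divided by 4, Cox4i2, on 11 to 43 estimated counts, no longer passed the filter. No paired analysis was possible because the groups share no replicate number. Depth limits Cox6a2, Cox8b and the 3 pseudogenes under the filter: edgeR with all libraries did not test them, DESeq2 gave them no adjusted p, and edgeR without WT 8 put Cox6a2 at -1.12 (adjusted p = 0.523).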
